A study of Mus musculus with 9 samples.

Results

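The 41 genes described here encode the autophagy machinery and its cargo receptors, chosen by symbol from a list of names that uses no threshold on their values. The list was nevertheless chosen with earlier results of these data known. All 41 were found among 23238 gene symbols in the count tables, and all 41 passed the filter on low counts that left 12859 genes for testing. They fall into 8 groups by role, namely the initiation complex (5 genes), the nucleation complex (6), membrane supply and readers of the lipid PI3P (7), the conjugation enzymes (6), the Atg4 proteases (4), the LC3 family (5), the receptors (7) and the nuclear cofactor Trp53inp2 (1). Expression was measured by 3′ RNA sequencing of total RNA from the gastrocnemius, a fast calf muscle. The animals were females of the inbred strain C57BL/6, bought at 4 weeks of age and kept for 7 days before treatment. The RP group received 4 intraperitoneal injections of cisplatin at 3 mg/kg, given every other day, together with 100 mg/kg RP by mouth on 9 consecutive days. The labels do not spell out RP; the title of the series names Paeonia lactiflora, a peony. The Cisplatin group received the same injections of this DNA-crosslinking platinum drug, with distilled water by mouth. The Normal group received saline injections and distilled water by mouth. Each group holds 3 samples. No group received RP without cisplatin, so what RP does by itself and what it does to the cisplatin response cannot be told apart. Whether each sample is a separate mouse is not stated in the labels, and the p-values therefore measure only the spread among these samples, which may be technical.

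Autophagy delivers parts of the cytoplasm to the lysosome inside a double membrane, the autophagosome. The Ulk kinase complex starts it, the Pik3c3 lipid kinase complex marks the membrane with PI3P, and ubiquitin-like enzymes attach the LC3 family proteins to the membrane lipid. Receptors then hold cargo, such as ubiquitinated protein or mitochondria, to the membrane-bound LC3 family. In skeletal muscle the pathway is known to be active in fasting and wasting, and the transcription factors of the FoxO family are known to act on some of its genes.

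Total counts were 9178613 to 9826089 per sample in RP, 8352397 to 10678342 in Cisplatin and 8196030 to 8677236 in Normal. Levels are given as CPM, counts as a proportion of the library total, scaled by the trimmed mean of M-values (TMM), and because each transcript yields 1 read at its 3′ end they are not divided by gene length. Changes are log2 fold changes ± SE from edgeR's quasi-likelihood test on all genes, with p-values adjusted by Benjamini-Hochberg over all genes tested, and a gene is said to rise or fall only at an adjusted p under 0.05.

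The windows around the start sites of the members that changed by more than 2 on the log2 scale in Cisplatin against Normal are shown because these 5 genes carry the largest responses. Each window runs from 250 bases before to 50 bases after the RefSeq start site on GRCm38.p6, reads 5′ to 3′ on the gene's strand, and has its motif matches in capitals. The risen genes are Gabarapl1 (chr6:129532942-129533241, plus strand), Bnip3 (chr7:138909457-138909756, minus strand) and Map1lc3b (chr8:121590188-121590487, plus strand). The fallen genes are Trp53inp2 (chr2:155381606-155381905, plus strand) and Atg10 (chr13:91223938-91224237, minus strand).
Gabarapl1: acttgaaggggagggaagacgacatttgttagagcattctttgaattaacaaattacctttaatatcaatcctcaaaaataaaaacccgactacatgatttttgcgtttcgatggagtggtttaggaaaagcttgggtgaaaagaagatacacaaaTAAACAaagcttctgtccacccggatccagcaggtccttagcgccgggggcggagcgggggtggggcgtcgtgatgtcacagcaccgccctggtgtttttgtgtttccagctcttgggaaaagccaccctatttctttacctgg
Bnip3: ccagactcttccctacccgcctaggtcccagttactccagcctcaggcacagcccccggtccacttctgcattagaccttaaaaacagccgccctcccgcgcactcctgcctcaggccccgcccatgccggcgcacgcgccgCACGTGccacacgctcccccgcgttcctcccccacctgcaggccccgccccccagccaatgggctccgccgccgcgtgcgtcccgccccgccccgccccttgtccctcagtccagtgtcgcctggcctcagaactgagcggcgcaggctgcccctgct
Map1lc3b: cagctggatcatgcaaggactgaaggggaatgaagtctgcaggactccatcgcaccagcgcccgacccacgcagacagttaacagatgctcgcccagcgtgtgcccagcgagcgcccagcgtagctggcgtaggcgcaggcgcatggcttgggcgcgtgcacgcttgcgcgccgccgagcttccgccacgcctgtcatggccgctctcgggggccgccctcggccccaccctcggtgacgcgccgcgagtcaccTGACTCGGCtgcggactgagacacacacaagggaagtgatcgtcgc
Trp53inp2: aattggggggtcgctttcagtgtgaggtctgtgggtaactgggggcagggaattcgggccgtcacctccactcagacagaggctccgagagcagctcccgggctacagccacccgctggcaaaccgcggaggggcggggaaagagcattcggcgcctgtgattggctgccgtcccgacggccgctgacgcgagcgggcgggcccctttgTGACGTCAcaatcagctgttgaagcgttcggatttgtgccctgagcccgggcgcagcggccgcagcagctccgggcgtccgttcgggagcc
Atg10: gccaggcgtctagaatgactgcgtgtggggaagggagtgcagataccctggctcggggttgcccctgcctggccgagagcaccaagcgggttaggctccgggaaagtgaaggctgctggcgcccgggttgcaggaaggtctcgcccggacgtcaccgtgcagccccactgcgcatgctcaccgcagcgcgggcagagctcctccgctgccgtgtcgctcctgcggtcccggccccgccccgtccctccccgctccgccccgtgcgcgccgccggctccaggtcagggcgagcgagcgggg

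The capitals mark TAAACA, the core of forkhead factor sites, in Gabarapl1, starting 94 bases before the start site. In Bnip3 they mark CACGTG, the E-box, which starts 108 bases before the start site and holds the hypoxia response core ACGTG on both strands. In Map1lc3b they mark TGACNNNGC, the core of the antioxidant response element, starting 4 bases after the start site. In Trp53inp2 they mark TGACGTCA, the cyclic AMP response element, starting 41 bases before the RefSeq start site. The window of Trp53inp2 lies inside the gene as annotated in GENCODE M21, which begins at base 155381059. Motifs were searched on both strands; TAAACA and TGACGTCA were added after the sequences had been read. Of 34 members with a window, 5 held TAAACA, 5 held CACGTG, 5 held TGACNNNGC, 16 held ACGTG and 2 held TGACGTCA. Among all 32851 windows the shares were 13.4% for TAAACA, 7.15% for CACGTG, 12.4% for TGACNNNGC, 19.6% for ACGTG and 1.79% for TGACGTCA. The units differ, as a member counted if any of its windows matched, whereas the shares are per window over 27025 symbols. No member's window held the longer FoxO site TGTTTAC or the CLEAR element of lysosomal genes, an extended E-box, which 3.65% and 0.326% of all windows held. The window of Gabarapl1 had a GC content of 46.3%, against 67.3% to 73.0% in the other 4, and none of the searched motifs matched in the window of Atg10.

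The comparison of Cisplatin with Normal asks how the drug changed the autophagy genes of the muscle. In Cisplatin 20 of the 41 members rose and 4 fell; the members' median log2 fold change was 0.37, against -0.08 over all genes tested. The risen members were the whole receptor group, 4 of 5 LC3 family genes, 3 of 5 initiation genes, 3 of 6 nucleation genes and 3 of 7 membrane genes, whereas no conjugation enzyme and no Atg4 protease rose. Over all 12859 genes 26.3% rose and 28.2% fell, 54.5% in all, and the members' counts are to be read against these shares. The groups did not overlap for 23 members with Cisplatin above Normal and for 5 with Cisplatin below it, where 30.3% and 31.9% of all genes did so, 62.2% in all. The heat map of the 41 genes by sample shows where in the pathway these changes lay.

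**Figure D1:**
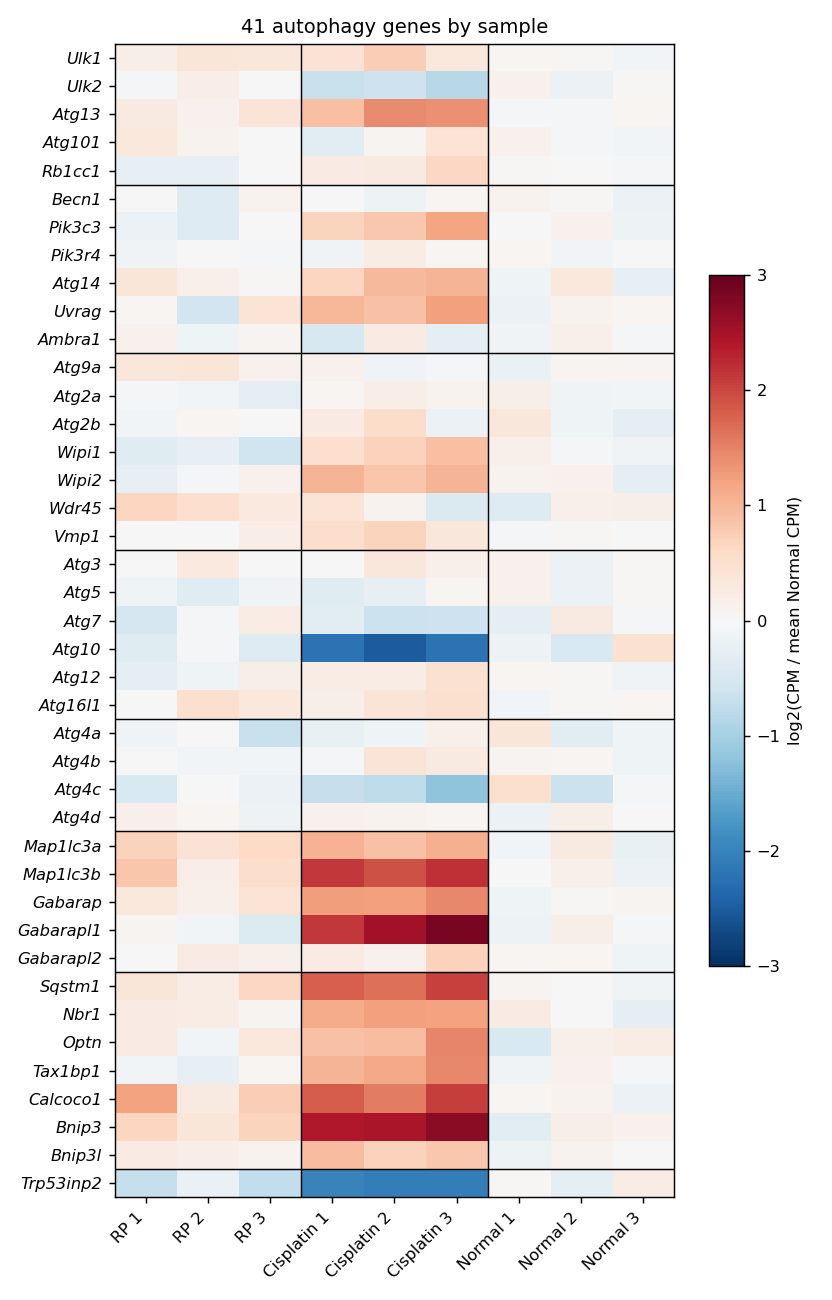
Each row is 1 of the 41 genes and each column 1 sample, with colour giving the log2 ratio of the sample's CPM to the gene's mean CPM in the 3 Normal samples; horizontal lines part the 8 role groups in the order in which they are listed in the text. The LC3 family and receptor rows are red in the 3 Cisplatin samples, Atg10 and Trp53inp2 are blue there, and the RP columns are paler than the Cisplatin columns for these genes other than Gabarapl2, for which RP and Cisplatin overlap.

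The LC3 family holds the small ubiquitin-like proteins that are joined to the autophagosome membrane and bind receptors. Gabarapl1 (chromosome 6, 129533160 to 129542346, plus strand, GENCODE M21 on GRCm38) had 73.9, 65.7 and 52.5 CPM in the RP samples, 299.97, 396 and 496 CPM in the Cisplatin samples and 62.3, 77.7 and 68.0 CPM in the Normal samples. All 3 Cisplatin samples stood far above the others, while RP and Normal overlapped. Gabarapl1 rose by 2.52 ± 0.19 in Cisplatin against Normal (edgeR adjusted p = 3.03e-07) and fell by 2.63 ± 0.19 in RP against Cisplatin (edgeR adjusted p = 3.79e-07). Map1lc3b, which encodes LC3B, the usual protein marker of autophagosomes, lies on chromosome 8, 121590361 to 121598760, plus strand. It had 348, 225 and 283 CPM in RP, 854, 737 and 899.6 CPM in Cisplatin and 198, 217 and 173 CPM in Normal. The 3 groups did not overlap, with RP between the other groups. Map1lc3b rose by 2.08 ± 0.17 in Cisplatin against Normal (edgeR adjusted p = 5.42e-07) and fell by 1.54 ± 0.17 in RP against Cisplatin (edgeR adjusted p = 9.46e-06).

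Gabarap, a close relative of Gabarapl1, had 109, 97.2 and 118 CPM in RP, 208, 206 and 240.1 CPM in Cisplatin and 80.4, 89.7 and 93.6 CPM in Normal. Here too the 3 groups were apart, by 1.31 ± 0.13 in Cisplatin against Normal and by -1.01 ± 0.13 in RP against Cisplatin (edgeR adjusted p = 2.55e-06 and 2.94e-05). Map1lc3a, which encodes LC3A, had 302, 251 and 281 CPM in RP, 385, 345 and 391 CPM in Cisplatin and 175, 225 and 159 CPM in Normal. It rose by 1.01 ± 0.15 in Cisplatin against Normal (edgeR adjusted p = 7.34e-05). In RP against Cisplatin it fell by 0.43 ± 0.15 (edgeR adjusted p = 0.0258), a call lost without Cisplatin replicate 1 (edgeR adjusted p = 0.0642) or replicate 3 (0.0548), without RP replicate 2 (0.0990) and with library size as the only scaling (0.111). Gabarapl2 was the member of the family that was not called, at 58.8, 70.2 and 66.7 CPM in RP, 70.7, 65.0 and 95.8 CPM in Cisplatin and 62.6, 61.9 and 54.5 CPM in Normal. Its log2 fold change in Cisplatin against Normal was 0.37, with a 95% interval of 0.04 to 0.70 (edgeR adjusted p = 0.0575). It passed without Cisplatin replicate 2 (edgeR adjusted p = 0.0273) and with the ribosomal RNA gene Rn45s left out (0.0486).

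**Figure D2:**
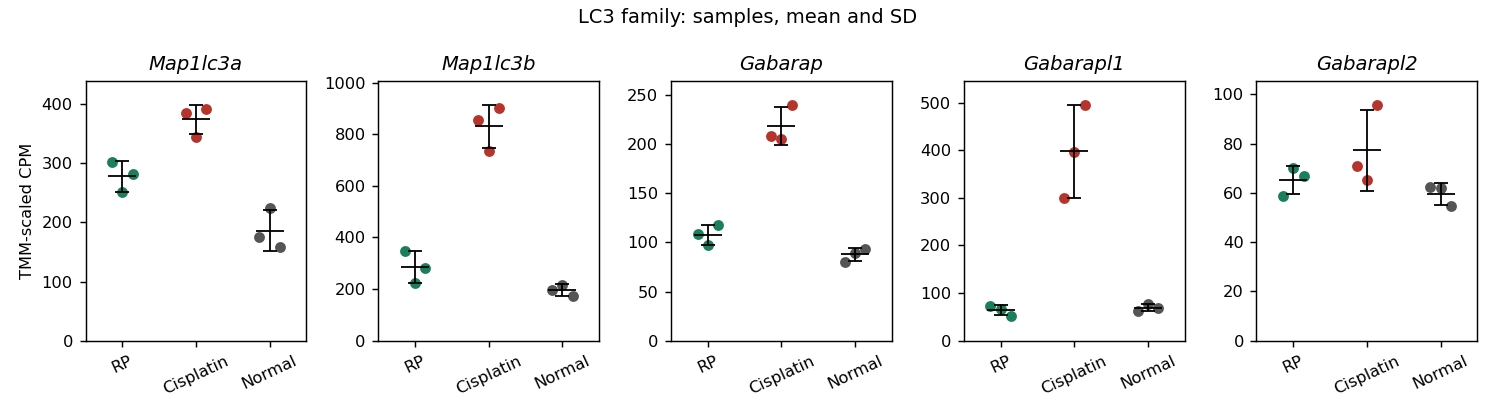
TMM-scaled CPM of the 5 LC3 family genes in each sample of the RP, Cisplatin and Normal groups (points), with the mean (long bar) and SD (whiskers), each panel with its own scale from 0. Gabarapl1 stands at 299.97 to 496 CPM in Cisplatin and below 78 CPM in every RP and Normal sample, and Gabarapl2 differs least.

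The members of the family changed by unequal amounts, so its make-up in counts changed as well. The summed level of the 5 genes was 891, 708 and 801 CPM in RP, 1819, 1749 and 2122 CPM in Cisplatin and 578, 671 and 547 CPM in Normal. Gabarapl1 supplied 8.29%, 9.27% and 6.55% of these counts in RP, 16.5%, 22.7% and 23.3% in Cisplatin and 10.8%, 11.6% and 12.4% in Normal. Map1lc3b supplied 39.0%, 31.7% and 35.3% in RP, 47.0%, 42.1% and 42.4% in Cisplatin and 34.2%, 32.3% and 31.5% in Normal. The share of Map1lc3a was 33.9%, 35.4% and 35.1% in RP, 21.2%, 19.7% and 18.4% in Cisplatin and 30.3%, 33.5% and 29.0% in Normal. Gabarap supplied 12.2%, 13.7% and 14.7% in RP, 11.5%, 11.8% and 11.3% in Cisplatin and 13.9%, 13.4% and 17.1% in Normal. Gabarapl2 supplied 6.60%, 9.91% and 8.33% in RP, 3.89%, 3.72% and 4.51% in Cisplatin and 10.8%, 9.22% and 9.96% in Normal. In every Cisplatin sample Gabarapl1 and Map1lc3b thus took more than in any RP or Normal sample. Map1lc3a, Gabarap and Gabarapl2 each took less there. The share of Gabarapl1 was lower in each RP sample than in each Normal sample. With 3 samples a group these shares are given as a description without a test.

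**Figure D3:**
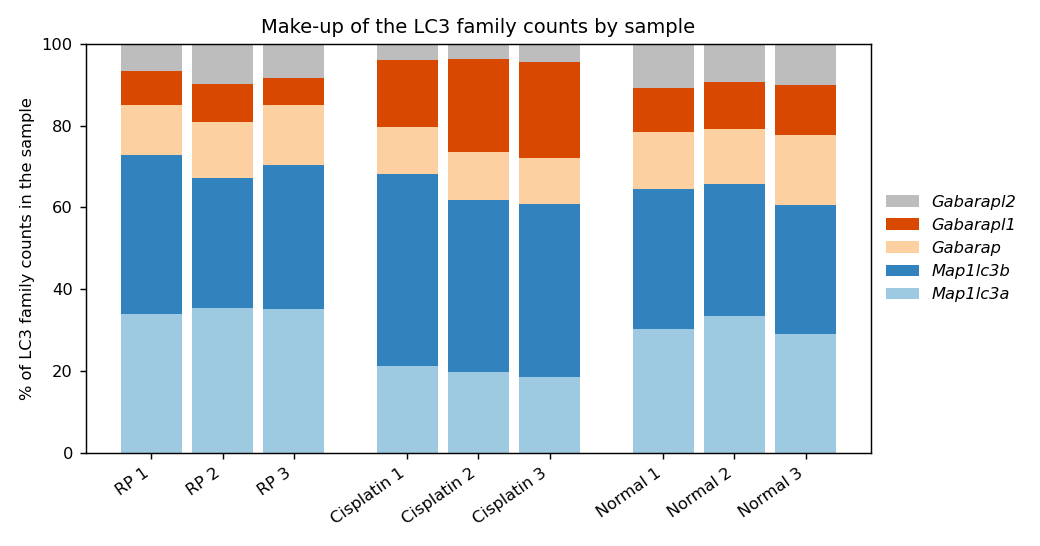
Stacked bars give the percentage of the summed LC3 family counts that each of the 5 genes supplied in each sample, with RP at the left, Cisplatin in the middle and Normal at the right. The Gabarapl1 segment is 16.5% to 23.3% in Cisplatin, and at most 9.27% in RP and 12.4% in Normal.

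The receptors rose as a whole in Cisplatin, 7 of 7, and 7 of 7 fell in RP against Cisplatin, with medians of 1.21 and -1.03. Over all genes 26.3% rose in Cisplatin against Normal and 24.2% fell in RP against Cisplatin. Bnip3, a receptor of the outer mitochondrial membrane that is known to be induced by hypoxia and by FoxO3, lies on chromosome 7, 138890836 to 138909519, minus strand. It had 309, 254 and 314 CPM in RP, 1051, 1090.1 and 1295 CPM in Cisplatin and 157, 223 and 215 CPM in Normal. The groups did not overlap, and Bnip3 rose by 2.53 ± 0.17 in Cisplatin against Normal (edgeR adjusted p = 9.85e-08), and fell by 1.97 ± 0.16 in RP against Cisplatin (edgeR adjusted p = 1.07e-06). Its relative Bnip3l (NIX) changed less, at 101, 97.4 and 91.6 CPM in RP, 163, 137 and 149.9 CPM in Cisplatin and 77.1, 92.3 and 86.2 CPM in Normal. That is 0.82 ± 0.12 in Cisplatin against Normal and -0.63 ± 0.12 in RP against Cisplatin (edgeR adjusted p = 9.86e-05 and 0.000875).

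Sqstm1, which encodes p62, the receptor that joins ubiquitinated cargo to LC3, lies on chromosome 11, 50199366 to 50210827, minus strand. It had 414, 376 and 489 CPM in RP, 1103, 1005 and 1332 CPM in Cisplatin and 339, 323 and 298 CPM in Normal. Every Cisplatin sample stood above every RP sample, and every RP sample above every Normal sample, and the log2 fold changes were 1.84 ± 0.15 in Cisplatin against Normal and -1.43 ± 0.15 in RP against Cisplatin (edgeR adjusted p = 5.76e-07 and 7.07e-06). Calcoco1, a receptor of the endoplasmic reticulum, had 233, 122 and 167 CPM in RP, 355, 290.3 and 424 CPM in Cisplatin and 105, 109 and 88.8 CPM in Normal. It rose by 1.82 ± 0.21 and fell by 1.03 ± 0.21 in the same comparisons (edgeR adjusted p = 1.11e-05 and 0.00111), and its RP samples were spread more widely than its Normal samples.

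Tax1bp1, a further ubiquitin-binding receptor, had 171, 155 and 189 CPM in RP, 368, 402 and 494 CPM in Cisplatin and 169, 199 and 178 CPM in Normal. Nbr1, a partner of p62, had 55.1, 54.7 and 49.6 CPM in RP, 102, 109.9 and 108 CPM in Cisplatin and 55.3, 46.7 and 38.0 CPM in Normal. Optn (optineurin) had 34.5, 27.4 and 36.6 CPM in RP, 53.3, 55.8 and 80.1 CPM in Cisplatin and 21.3, 32.4 and 34.1 CPM in Normal. In all 3 genes the Cisplatin samples stood above every other sample and RP overlapped Normal. They rose by 1.21 ± 0.14, 1.19 ± 0.14 and 1.11 ± 0.21 in Cisplatin against Normal (edgeR adjusted p = 1.25e-05, 1.55e-05 and 0.000494).

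Trp53inp2 (chromosome 2, 155381059 to 155389850, plus strand) encodes a nuclear cofactor that is known to leave the nucleus and bind LC3 family proteins when autophagy is induced. It went against the receptors, with 145, 205 and 139 CPM in RP, 58.2, 55.2 and 55.1 CPM in Cisplatin and 241, 189.5 and 271 CPM in Normal. The Cisplatin samples were lowest and close together, and RP overlapped Normal. Trp53inp2 fell by 2.06 ± 0.17 in Cisplatin against Normal (edgeR adjusted p = 7.41e-07) and rose by 1.54 ± 0.17 in RP against Cisplatin (edgeR adjusted p = 1.20e-05).

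**Figure D4:**
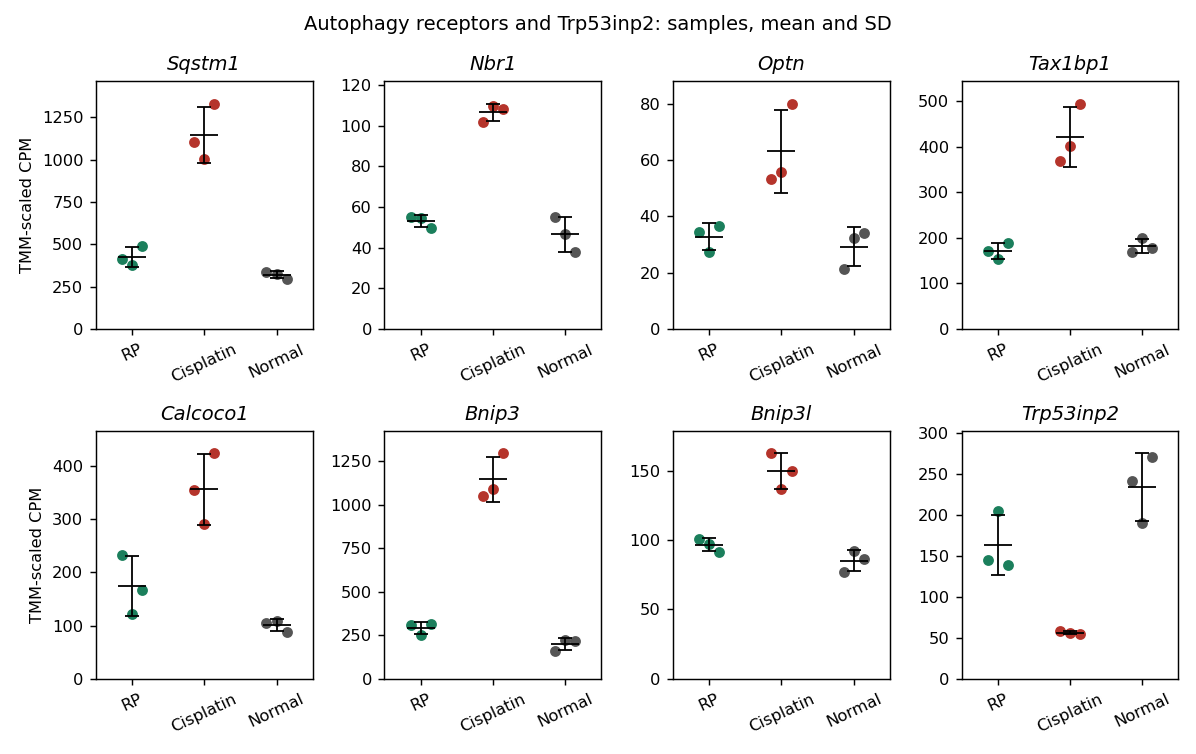
TMM-scaled CPM of the 7 receptors and of Trp53inp2 in each sample of the RP, Cisplatin and Normal groups (points), with the mean (long bar) and SD (whiskers), each panel with its own scale from 0. Every receptor is highest in the 3 Cisplatin samples, and Trp53inp2 is lowest there, at 55.1 to 58.2 CPM.

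In the initiation complex the Ulk kinases work with Atg13, Atg101 and Rb1cc1 (FIP200). Of its 5 genes 3 rose and 1 fell in Cisplatin against Normal, where 26.3% of all genes rose and 28.2% fell. Atg13, the regulatory subunit, had 23.9, 21.8 and 26.0 CPM in RP, 37.4, 53.2 and 51.5 CPM in Cisplatin and 19.6, 19.5 and 20.6 CPM in Normal. It rose by 1.25 ± 0.16 in Cisplatin against Normal and fell by 0.99 ± 0.16 in RP against Cisplatin (edgeR adjusted p = 2.56e-05 and 0.000211). The kinase genes parted: Ulk1 had 69.3, 78.9 and 76.98 CPM in RP, 83.2, 102 and 76.4 CPM in Cisplatin and 63.7, 62.3 and 57.6 CPM in Normal. Ulk2 had 85.2, 102 and 88.0 CPM in RP, 56.4, 57.9 and 50.2 CPM in Cisplatin and 96.99, 78.6 and 91.2 CPM in Normal. In Cisplatin against Normal Ulk1 rose by 0.51 ± 0.14 and Ulk2 fell by 0.70 ± 0.13 (edgeR adjusted p = 0.00593 and 0.000607). In RP against Cisplatin Ulk2 rose by 0.74 ± 0.13 (edgeR adjusted p = 0.000490), and Ulk1 was not called at -0.22 ± 0.13. Rb1cc1 averaged 322 ± 33.0 CPM in RP, 469.9 ± 69.1 CPM in Cisplatin and 359 ± 10.5 CPM in Normal (SD, n = 3 each). Its rise of 0.39 ± 0.14 in Cisplatin against Normal (edgeR adjusted p = 0.0270) was lost without Normal replicate 1 (edgeR adjusted p = 0.0524), 2 (0.0543) or 3 (0.0611) or without Cisplatin replicate 3 (0.0918).

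The nucleation genes encode the Pik3c3 (Vps34) lipid kinase and its partners. Of these 6 genes 3 rose in Cisplatin against Normal, where 26.3% of all genes did so. Uvrag, a subunit of the form of the complex that acts on endosomes, had 12.3, 7.85 and 15.6 CPM in RP, 23.5, 21.6 and 27.7 CPM in Cisplatin and 10.4, 12.6 and 12.3 CPM in Normal. Uvrag rose by 1.04 ± 0.23 in Cisplatin against Normal (edgeR adjusted p = 0.00162), beside Pik3c3 itself at 0.91 ± 0.18 and Atg14, the subunit that places the complex at the forming autophagosome, at 0.88 ± 0.19 (edgeR adjusted p = 0.000685 and 0.00121). In RP against Cisplatin these 3 genes fell by 1.02 ± 0.23, 1.08 ± 0.18 and 0.70 ± 0.18 (edgeR adjusted p = 0.00211, 0.000233 and 0.00628). The remaining subunits Becn1 and Pik3r4 and the scaffold Ambra1 were not called. Becn1 averaged 49.7 ± 8.42 CPM in RP, 51.2 ± 3.82 CPM in Cisplatin and 52.4 ± 5.28 CPM in Normal (SD, n = 3 each).

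Among the membrane and PI3P genes, Wipi1 and Wipi2, which encode PI3P readers, and Vmp1, which encodes a lipid scramblase of the endoplasmic reticulum, rose in Cisplatin against Normal, by 0.70 ± 0.15, 0.96 ± 0.16 and 0.51 ± 0.13 (edgeR adjusted p = 0.00138, 0.000242 and 0.00390). In RP against Cisplatin they fell by 1.09 ± 0.15, 0.998 ± 0.16 and 0.44 ± 0.13 (edgeR adjusted p = 6.22e-05, 0.000220 and 0.0106). The fall of Vmp1 was lost without Cisplatin replicate 2 (edgeR adjusted p = 0.0550) and with library size as the only scaling (0.0847). Wipi1 averaged 35.7 ± 4.59 CPM in RP, 76.2 ± 10.6 CPM in Cisplatin and 46.9 ± 4.33 CPM in Normal. The genes Atg9a, Atg2a and Atg2b and the PI3P reader Wdr45 were not called in any comparison. However, Atg9a was called higher in RP against Cisplatin with library size scaling and with the filter of 5 CPM in 3 samples.

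The conjugation enzymes and the Atg4 proteases, which prepare the LC3 proteins and attach them to lipid, showed no rise in Cisplatin against Normal. The 6 conjugation genes summed to 129 to 153 CPM in RP, 133 to 155 CPM in Cisplatin and 141 to 154 CPM in Normal, and the 4 protease genes to 55.1 to 63.1, 60.7 to 67.3 and 59.1 to 63.4 CPM in the same order of groups. Atg10, the E2-like enzyme that joins Atg12 to Atg5, and the protease gene Atg4c were the members of these groups that were called, both as falls. Atg10 lies on chromosome 13, 90935356 to 91223968, minus strand, and had 16.3, 19.96 and 16.04 CPM in RP, 4.46, 3.71 and 4.52 CPM in Cisplatin and 18.8, 15.1 and 28.6 CPM in Normal. These levels rest on 518, 115 and 525 counts over the 3 samples of the RP, Cisplatin and Normal groups. Atg10 fell by 2.304 ± 0.25 in Cisplatin against Normal and rose by 2.05 ± 0.25 in RP against Cisplatin (edgeR adjusted p = 6.34e-06 and 2.51e-05). Atg5, Atg7 and Atg12, which take part in the same reaction, and Atg16l1, which binds its product, were not called in Cisplatin against Normal. Over all 17 members not called there, log2 fold changes ran from -0.53 ± 0.24 for Atg7, the E1-like enzyme (edgeR adjusted p = 0.0741), to 0.37 ± 0.16 for Gabarapl2. Atg7 was called, as a fall, with a stricter filter of 5 CPM in 3 samples (edgeR adjusted p = 0.0442).

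Atg4c was called with a fall of 0.86 ± 0.33 (edgeR adjusted p = 0.0384) on 95 counts over the Cisplatin samples and 158 over the Normal samples. The call was lost under 8 of 18 alternatives, among them the replicate number as a block (edgeR adjusted p = 0.0553), and leaving out Normal replicate 1 (0.224) or 3 (0.0707) or Cisplatin replicate 1 (0.0538), 2 (0.0674) or 3 (0.120). Atg12 fell by 0.37 ± 0.15 in RP against Cisplatin (edgeR adjusted p = 0.0481), a call lost under 12 of 18 alternatives, including the removal of any sample other than RP replicate 3.

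The second comparison, RP against Cisplatin, addresses what RP added to cisplatin treatment. Of the 41 members 20 fell and 3 rose, Atg10, Trp53inp2 and Ulk2, with a median log2 fold change of -0.27 against 0.07 over all genes tested. Over all 12859 genes 24.2% fell and 24.6% rose, 48.8% in all. The fallen members were 7 of 7 receptors, 4 of 5 LC3 family genes, 3 of 6 nucleation genes, 3 of 7 membrane genes, 2 of 5 initiation genes and 1 of 6 conjugation genes. The groups did not overlap for 21 members with RP below Cisplatin and for 4 with RP above it, where 27.8% and 29% of all genes did so, 56.8% in all. This comparison and that of Cisplatin with Normal share the Cisplatin samples, so opposite signs in them are not independent results.

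**Figure D5:**
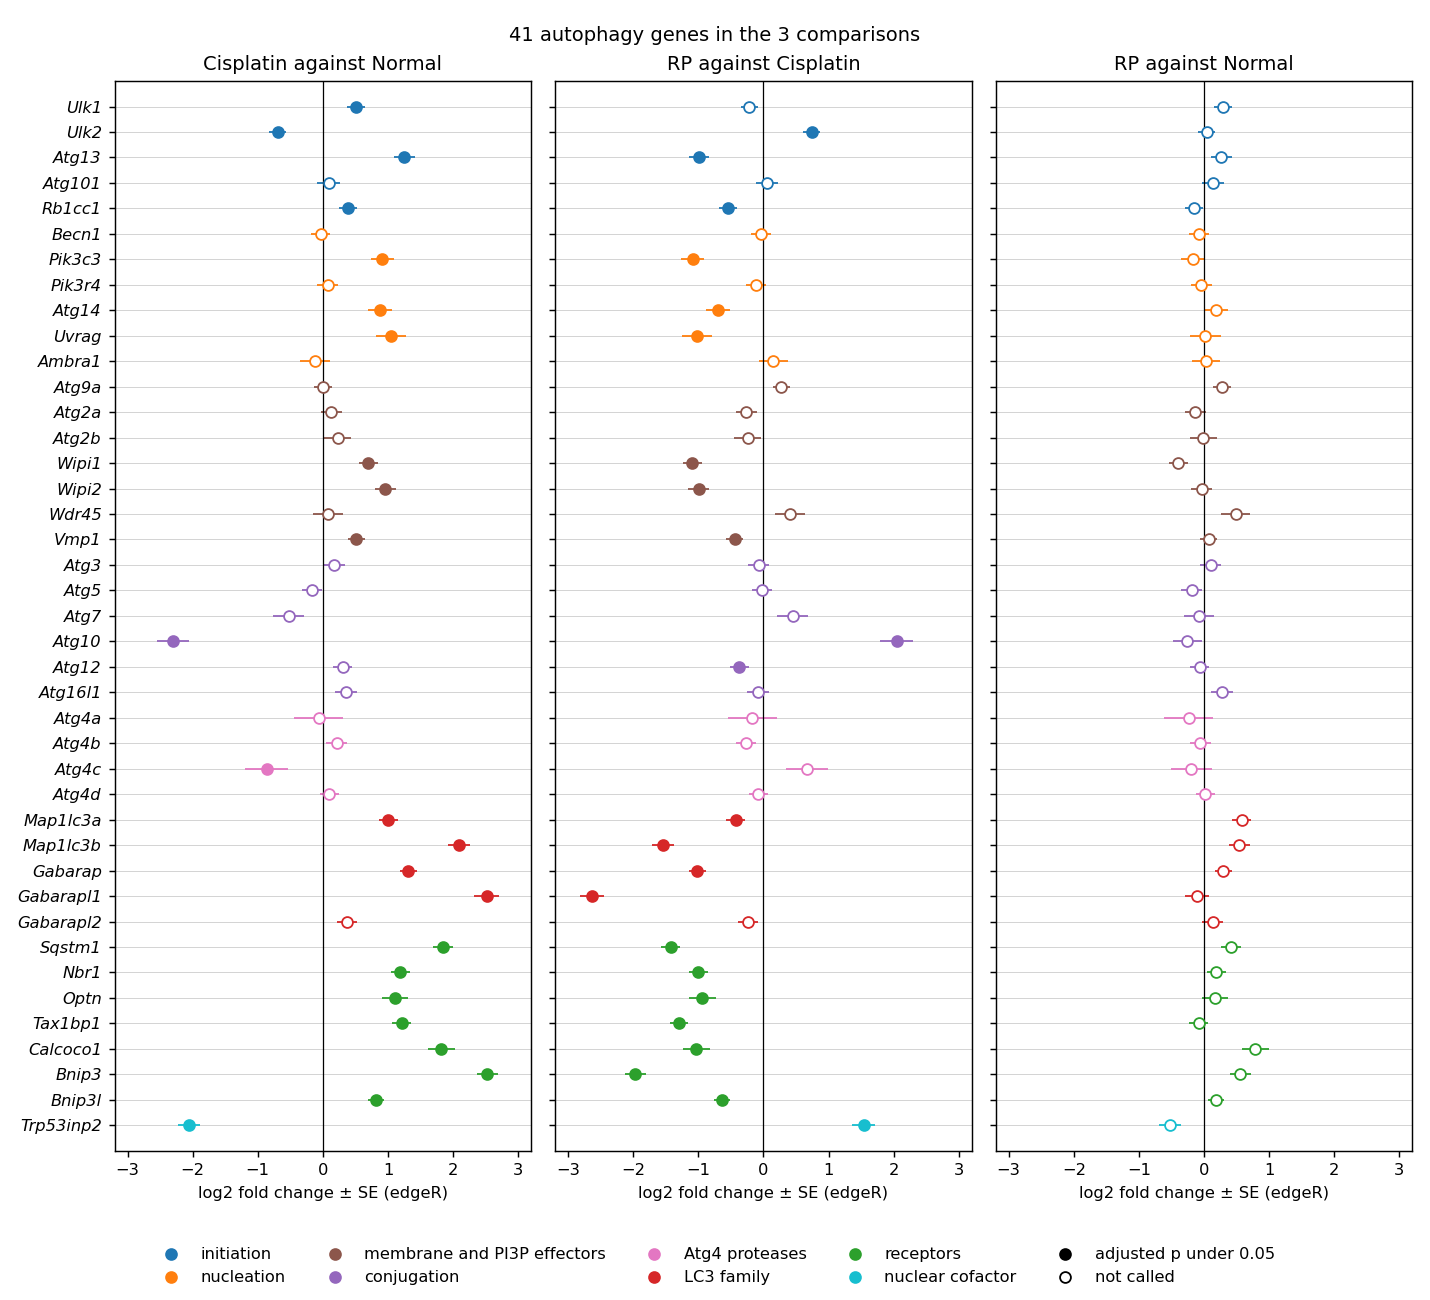
Log2 fold changes from edgeR (points) with their SE (bars) for the 41 genes in the 3 comparisons, coloured by role group, with filled points for an adjusted p under 0.05 and open points for genes not called. Filled points number 24 in Cisplatin against Normal and 23 in RP against Cisplatin, and every point is open in RP against Normal.

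The comparison of RP with Normal asks how far the muscle of mice given both agents differed from that of mice given neither. Here 0 of 41 members were called by edgeR, where 0.505% of all genes tested were called, 0.187% as risen and 0.319% as fallen. At an unadjusted p under 0.05 there were 9 members, where 12.8% of all genes passed. DESeq2 called 2 members (Calcoco1 and Map1lc3a) and 1.78% of all genes, and limma-voom called 0 members and 0.513% of all genes. All 41 log2 fold changes lay between -0.52 and 0.79, with a median of 0.03 against -0.01 over all genes. Calcoco1 had the highest, 0.79 with a 95% interval of 0.34 to 1.24 (edgeR adjusted p = 0.131), followed by Map1lc3a at 0.58 (0.26 to 0.89, edgeR adjusted p = 0.112), Bnip3 at 0.56 (0.22 to 0.90, edgeR adjusted p = 0.159) and Map1lc3b at 0.54 (0.19 to 0.90, edgeR adjusted p = 0.182). Trp53inp2 had the lowest, -0.52 (-0.88 to -0.16, edgeR adjusted p = 0.201). For Gabarapl1 it was -0.12, with an interval of -0.51 to 0.28. In every RP sample Map1lc3a, Map1lc3b, Gabarap, Sqstm1, Calcoco1, Bnip3, Ulk1, Atg13, Atg9a and Wdr45 stood above every Normal sample, and Wipi1 stood below. That is 10 members above and 1 below, where 9.65% and 9.53% of all genes were so, 19.2% in all. These genes were chosen after their values were seen, and a p that misses the threshold does not show that RP and Normal were alike.

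The members also varied among the samples of a group. Of the 20 members that rose in Cisplatin against Normal, 14 were highest in Cisplatin replicate 3, the sample with the lowest TMM factor (0.850), and 11 of the 20 were highest within RP in RP replicate 3. Without Cisplatin replicate 3, 19 members rose and 3 fell, with Rb1cc1 and Atg4c no longer called. Within RP, Calcoco1 ran from 122 to 233 CPM and Map1lc3b from 225 to 348 CPM, in both cases lowest in RP replicate 2 and highest in RP replicate 1. The ribosomal RNA gene Rn45s took 7.38% to 11.8% of the counts in RP, 9.23% to 12.1% in Cisplatin and 12.6% to 12.8% in Normal, and 21 members rose and 4 fell when it was left out.

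Some members share sequence or position with other genes, and the strand setting of the counting is not given in the sources used here. Exons of Gabarapl1 overlap those of 1700101I11Rik on the opposite strand, which averaged 0.847 ± 0.522 CPM in RP, 6.48 ± 2.47 CPM in Cisplatin and 1.31 ± 0.641 CPM in Normal, so that reads in the overlap cannot be told apart. Exons of Map1lc3b overlap those of Zcchc14, at 13.6 ± 3.00 CPM in RP, 18.6 ± 4.56 CPM in Cisplatin and 13.6 ± 4.49 CPM in Normal, which was not called. Exons of Becn1 overlap those of Cntd1 on the opposite strand, and the last 300 bases of a Becn1 transcript are also annotated in full in a Cntd1 transcript; Cntd1 averaged 45.7 ± 7.15 CPM in RP, 44.7 ± 3.10 CPM in Cisplatin and 46.6 ± 5.46 CPM in Normal. The value of Becn1 is therefore uncertain. Exons of Atg9a overlap those of Ankzf1, which averaged 7.65 ± 0.890 CPM in RP, 20.9 ± 2.26 CPM in Cisplatin and 7.69 ± 1.19 CPM in Normal, and those of Atg2b overlap Gskip. Exons of Atg4d overlap those of Kri1 on the opposite strand, which averaged 31.1 ± 4.15 CPM in RP, 35.7 ± 0.875 CPM in Cisplatin and 32.1 ± 3.64 CPM in Normal. Atg4d itself averaged 32.8 ± 3.50, 34.6 ± 0.847 and 32.4 ± 3.96 CPM in the same order of groups. The value of Atg4d, and with it the sum of the Atg4 proteases, is therefore uncertain too. The end of Sqstm1 matched Mrnip, which is not among the files' symbols, over 133 bases without a mismatch. The ends of Atg4a, Atg9a, Rb1cc1 and Wdr45 each matched 1 further gene model that is not among these symbols. The end of Bnip3 matched 4 gene models that are not among the files' symbols, at 99.0% identity or more over at least 172 bases, and how reads were divided between these copies is not known.

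Of 60 further genes of the pathway, 59 were matched by symbol and tested, and 29 rose and 8 fell in Cisplatin against Normal, with a median of 0.44. These counts and those of its 4 sublists are to be read against the 26.3% of all genes that rose and the 28.2% that fell. In RP against Cisplatin 24 fell and 9 rose (median -0.26), where 24.2% and 24.6% of all genes did so, and in RP against Normal 0 were called, with 11 at an unadjusted p under 0.05, where 12.8% of all genes passed. Of 18 further genes of selective autophagy, mostly receptors but also the kinase Pink1 and the ubiquitin ligase Park2, 9 rose and 4 fell. Fam134b, listed under the older symbol of Retreg1, a receptor for the endoplasmic reticulum, averaged 405 ± 60.2 CPM in RP, 3647 ± 656 CPM in Cisplatin and 327 ± 45.4 CPM in Normal (SD, n = 3 each). It rose by 3.48 ± 0.19 in Cisplatin against Normal (edgeR adjusted p = 4.56e-08) and fell by 3.17 ± 0.19 in RP against Cisplatin (edgeR adjusted p = 1.23e-07). Tex264, another such receptor, and Tollip, a ubiquitin-binding adaptor, rose by 1.84 ± 0.21 and 1.46 ± 0.15 (edgeR adjusted p = 7.84e-06 and 4.22e-06). The glycogen receptor Stbd1, the ferritin receptor Ncoa4 and the mitochondrial receptor Fundc1 fell, by 1.39 ± 0.25, 0.49 ± 0.18 and 0.49 ± 0.18 (edgeR adjusted p = 0.000396, 0.0321 and 0.0369), the falls of Ncoa4 and Fundc1 each being lost under 6 of 18 alternatives, with adjusted p-values up to 0.117 and 0.116.

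Of 19 regulators of autophagy 9 rose and 3 fell in Cisplatin against Normal. Sesn1, a stress-induced inhibitor of the growth kinase mTORC1, rose by 3.21 ± 0.20, Foxo1, a transcription factor of atrophy genes, by 1.71 ± 0.23 and Rheb, the activator of mTORC1, by 1.46 ± 0.12 (edgeR adjusted p = 7.85e-08, 3.08e-05 and 4.82e-07). Foxo1 averaged 132 ± 28.1 CPM in RP, 239.9 ± 41.6 CPM in Cisplatin and 73.4 ± 23.3 CPM in Normal. In Cisplatin against Normal Foxo4 was not called at 0.007 ± 0.15 (edgeR adjusted p = 0.971). Foxo3, on 16 to 33 counts per group, was not called at 0.94 ± 0.98 (edgeR adjusted p = 0.439). The mTOR inhibitor Deptor, the Rag GTPase Rragd and the mTORC1 brake Tsc2 fell, by 1.39 ± 0.13, 0.79 ± 0.15 and 0.48 ± 0.14 (edgeR adjusted p = 1.42e-06, 0.000535 and 0.0125). The fall of Tsc2 was lost without Cisplatin replicate 2 (edgeR adjusted p = 0.0609). Tsc1 went the other way from Tsc2, with a rise of 1.06 ± 0.15 in Cisplatin against Normal (edgeR adjusted p = 6.76e-05). Of 17 genes of tethering and fusion with the lysosome 9 rose and 1 fell: the tether Epg5, the SNARE Snap29 and the HOPS subunit Vps16 rose by 1.55 ± 0.19, 1.01 ± 0.15 and 1.05 ± 0.18 (edgeR adjusted p = 1.80e-05, 8.69e-05 and 0.000238), and Tecpr2 fell by 0.97 ± 0.20 (edgeR adjusted p = 0.00113). Of 5 further genes linked to the lipid kinase or to PI3P 2 rose, the muscle phosphatase gene Mtmr14 by 1.70 ± 0.19 and Nrbf2 by 0.56 ± 0.22 (edgeR adjusted p = 8.20e-06 and 0.0405). The rise of Nrbf2 was lost under 6 of 18 alternatives, with adjusted p-values up to 0.231.

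Markers of other cells moved with the groups. The marker counts in Cisplatin against Normal are to be read against the 26.3% of all genes that rose and the 28.2% that fell. The 10 fibre markers, which mark the labelled tissue, summed to 127696 to 142863 CPM in RP, 91458 to 122898 CPM in Cisplatin and 127313 to 139204 CPM in Normal, and in Cisplatin against Normal 6 fell and 1 rose. All 8 fibroblast markers fell in Cisplatin against Normal (sums of 2153 to 3267 CPM in RP, 388 to 769 CPM in Cisplatin and 3477 to 5655 CPM in Normal), as did all 6 tendon markers (54.4 to 83.8, 5.80 to 12.4 and 184 to 369.7 CPM, Kera at 0 in Cisplatin) and all 5 erythroid markers tested of 6 (64.9 to 410.4, 34.0 to 60.4 and 4158 to 8992 CPM, Slc4a1 at 0 in Cisplatin). Of 7 macrophage markers 6 fell and 1 rose (97.5 to 146, 46.3 to 77.8 and 187 to 239 CPM in the same order of groups). Of 7 endothelial markers 4 fell and 1 rose (342 to 447, 249 to 342 and 423 to 479.98 CPM), and 6 of 6 adipocyte (912 to 1185, 52.2 to 238 and 226 to 1678 CPM), 5 of 5 smooth muscle (329 to 422, 129 to 202 and 383 to 445 CPM) and 4 of 6 Schwann cell markers fell (199.9 to 379, 56.5 to 138 and 216 to 367 CPM). Of 3 neutrophil markers tested of 6, 1 rose (4.17 to 11.3, 9.04 to 66.5 and 3.24 to 39.0 CPM, Mpo and Elane at 0 in RP and in Cisplatin). No lymphocyte marker passed the filter, with sums of at most 0.993 CPM in RP, 0.476 CPM in Cisplatin and 1.97 CPM in Normal. In RP against Normal 5 of 5 erythroid markers tested, 2 of 6 tendon and 1 of 8 fibroblast markers fell, where 0.319% of all genes fell. No other marker was called there. The part of these shifts in the changes of the autophagy genes was not tested, and in whole muscle fewer cells of a type and less RNA per cell cannot be told apart.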

How the data were processed

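The authors deposited 1 table of raw counts per gene symbol for each of the 9 samples. Per the labels' protocols the libraries were Lexogen QuantSeq 3′ libraries from 500 ng of RNA, and per the submitters' processing notes Bowtie2, edgeR and the mm10 build were used. How reads were counted, on which strand and against which annotation is not given in the sources used here. Rows sharing a symbol (79 rows, none of a member) were summed. The counts were tested with edgeR 4.0.16 in R 4.3.3: filterByExpr by group, TMM scaling, glmQLFit on all 9 samples with 1 coefficient per group, and glmQLFTest, with Benjamini-Hochberg adjusted p under 0.05 as a call. An SE is the size of the log2 fold change over the root of its F statistic, and intervals are 95%. The procedure was also run on simulated data in which far fewer genes changed than were called in Cisplatin against Normal. That run does not show how it performs when 54.5% of genes are called. Within groups, chi-square per degree of freedom between samples was 11.3 to 28.9, above sampling noise.

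The members and lists were chosen with earlier results of these data known. Per-sample values are given for members called in Cisplatin against Normal with a log2 fold change of at least 1 in size and for the LC3 family; up to 3 further pathway genes are named per list and direction, by p. Per-sample values of Bnip3l, Ulk1 and Ulk2 and the genes named in RP against Normal were added after their values were seen. So were Tsc1, Foxo3 and Foxo4. Alternatives used DESeq2 1.42.0, limma 3.58.1, RLE or library size scaling, other filters, a replicate block, 2 groups alone, Rn45s left out, and each sample left out. Positions are from GENCODE M21 on GRCm38, promoter windows from RefSeq, and similar transcript ends were sought with blastn 2.17.0 (last 300 bases, at least 97% identity over 100 bases). Figures were drawn with matplotlib 3.10.9. Intervals cover the spread between samples; low counts carry wide counting error.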

Additional observations from a re-analysis of the deposited data

How the results depend on the processing

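In Cisplatin against Normal 20 members rose and 4 fell; the counts were 19 to 21 and 3 to 4 when each sample was left out in turn, and 20 to 21 and 3 to 5 under the 9 other alternatives. In RP against Cisplatin 20 fell and 3 rose; the counts were 18 to 20 and 3 to 3 with each sample left out, and 17 to 20 and 3 to 4 otherwise. In RP against Normal, where 0 rose, the number that rose was 2 with DESeq2 and 2 with no filter on low counts, and 0 to 1 with each sample left out; 0 fell under every alternative run. Calcoco1 was the member without RP replicate 2 (edgeR adjusted p = 0.0264) and Map1lc3a the member without Normal replicate 2 (edgeR adjusted p = 0.0389). The cause of these differences was not tested. The log2 fold change of Gabarapl1 in RP against Normal, -0.12, ran from -0.23 to 0.0136 with each sample left out, the positive value being without RP replicate 3. No member called in a comparison changed sign under an alternative.

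Over all genes tested, library size scaling put the median log2 fold change at -0.15 in Cisplatin against Normal, 0.21 in RP against Cisplatin and 0.06 in RP against Normal, where TMM gave -0.08, 0.07 and -0.01. The number of genes called in RP against Normal was 65 with edgeR, 229 with DESeq2 and 293 with no filter, and ran from 22 to 116 when each sample was left out. Correlations of the deviations of same-numbered samples were -0.12 to 0.16, and 2 of 9 exceeded 0.1. Those of samples with other numbers were -0.19 to 0.12. With 3 samples a group these correlations cannot settle whether replicate numbers pair the samples. With the replicate block the counts were 20 risen and 3 fallen, 20 fallen and 3 risen, and 0. Depth limits Atg4a and Atg4c most, at 73 to 76 and 95 to 163 counts per group.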
